A study of Mus musculus with 6 samples.

Results

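The genes described here are 10 chemokine genes that bone and marrow stromal cells are known for: Ccl2, Ccl5, Ccl7, Ccl9, Cxcl1, Cxcl5, Cxcl10, Cxcl12, Cxcl14 and Cx3cl1. They were chosen by name, and are 10 of the 53801 gene identifiers counted. Of the 10, 9 passed the filter on low counts, as did 14531 genes in all, and Cxcl14 did not. The RNA came from the mouse pre-osteoblast line MC3T3-E1, in 3 Control and 3 Hdac4-knockdown libraries. Both groups carried the lentiviral vector pGMLV-HU6-MCS-CMV-ZsGreen1-PGK-Puro, which expresses a short hairpin from the U6 promoter together with ZsGreen1 and a puromycin resistance gene. Control cells carried a scrambled non-silencing sequence and Hdac4-knockdown cells a hairpin against Hdac4, named Hdac4-shRNA in the labels and Hdac4-shRNA3 in the study's text. Cells of both groups were selected for 7 days in puromycin at 5 μg/ml. The comparison addresses how lowering Hdac4, a class II histone deacetylase, changed chemokine mRNA in these cells. It rests on 1 cell line and 1 hairpin against Hdac4, with 3 libraries per group that the study calls biological replicates. Whether they came from separate infections is not stated there, and p-values measure only the spread between these libraries.

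Chemokines are small secreted proteins that guide cells along a gradient by binding G protein-coupled receptors on the cells that move. Their classes are named for the spacing of the conserved cysteines near the start of the mature protein. Stromal cells of bone use Cxcl12 to hold blood-forming cells in the marrow, and Ccl2, Ccl7 and the neutrophil-attracting Cxcl1 and Cxcl5 to call out or call in myeloid cells during inflammation. Many inflammatory members are switched on through NF-kB, and Cxcl10 also through interferons. The coding stretches around the first conserved cysteine pair are shown for 1 gene of each class and for Cxcl12, since the class decides which receptors a chemokine can use. Capitals mark the cysteine codons, adjacent in the CC class, 1 codon apart in the CXC class and 3 codons apart in the CX3C class. All are read 5′ to 3′ from exon 2 on the plus strand (GRCm38).
Ccl2, chr11:82036494-82036523: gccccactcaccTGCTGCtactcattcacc
Cxcl1, chr5:90891484-90891516: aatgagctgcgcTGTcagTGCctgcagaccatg
Cxcl12, chr6:117171496-117171528: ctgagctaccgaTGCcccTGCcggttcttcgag
Cx3cl1, chr8:94778039-94778077: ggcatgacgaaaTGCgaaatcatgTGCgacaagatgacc
The codons just before the first cysteine of Cxcl1 spell the Glu-Leu-Arg motif of the CXC chemokines that act on neutrophils, and Cxcl12 has no such motif.

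Reads counted on genes ranged from 29096544 to 31651826 per library. Levels are given as CPM, counts scaled to library size with TMM normalization, as mean ± SD of 3 libraries. A gene was called changed when edgeR's quasi-likelihood test gave a Benjamini-Hochberg adjusted p below 0.05 over all genes tested, with a log2 fold change beyond 0.05 in size. The targeted gene, Hdac4, fell from 40.3 ± 0.412 to 29.6 ± 0.981 CPM (log2 fold change -0.44, SE 0.057, adjusted p = 8.98e-07). Of its 15813 exon bases, 3536 are shared with Gm26720 on the opposite strand. Of 10 osteoblast markers, 7 were tested, 5 rose and 1 fell: Col1a1 by 5.03, Sp7 by 4.18, Col1a2 by 2.82, Dmp1 by 2.55 and Runx2 by 0.19 upward on the log2 scale, and Spp1 by a log2 fold change of -0.62, while Alpl had at most 3 counts, Ibsp at most 7 and Bglap at most 12 in any library. The Runx2 call was lost without Control library 2 (adjusted p = 0.0731 by edgeR). Leukocyte and macrophage markers (3 of 12 tested, 2 higher) summed to 12.3 to 13.8 CPM in Control and 16.6 to 19.2 CPM in Hdac4-knockdown libraries. Lyz2 rose from 5, 1 and 2 to 72, 95 and 81 counts (log2 fold change 4.82) and Csf1r from 3, 4 and 6 to 19, 23 and 22 (2.199), Cd14 was at 12.5 ± 0.872 and 14.1 ± 1.18 CPM and not called, and Adgre1, Mpo and Cd3e had 0 counts everywhere. Endothelial markers (2 of 8 tested, both higher) summed to 0.36 to 0.668 and to 5.65 to 6.55 CPM. Vwf rose from 3, 8 and 6 to 104, 113 and 74 counts (log2 fold change 3.997). Pecam1 rose from 6, 7 and 6 to 72, 75 and 75 (3.45), and Emcn and Cldn5 were at 0. Sp7, Lyz2, Csf1r, Vwf and Pecam1 were below 10 counts in each Control library and passed the filter only through their Hdac4-knockdown counts. A stricter filter asked for 10 or more counts in each of the 6 libraries. It left 4 osteoblast, 0 endothelial and 1 leukocyte or macrophage marker called higher. A looser filter of 1 count in total gave 7, 4 and 3. Adipocyte markers (3 of 7 tested, all lower) summed to 120.6 to 131.9 and to 30.2 to 34.7 CPM, with log2 fold changes of -3.07 for Pparg, -1.80 for Lpl and -1.51 for Cebpa and at most 1 count of Adipoq. Over all genes tested, 75.1% were called, 38% higher and 37.1% lower. The part of these marker changes in the chemokine results was not tested.

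The chemokine genes split between the groups. Ccl5, Cx3cl1 and Cxcl12 rose in Hdac4-knockdown libraries, Ccl2, Ccl7, Cxcl1, Cxcl5 and Cxcl10 fell, and Ccl9 was not called. The 3 that rose and 5 that fell of 9 tested stand beside 75.1% of all genes tested that were called, 38% higher and 37.1% lower, so the number called is near the background. The groups of 3 libraries did not overlap for 7 of the 9 genes, against 76.8% of all genes tested. A log2 fold change beyond 1 was called for 5 of the 9, against 27.1% of all genes tested. The median log2 fold change of the 9 was -0.43, and 0.0144 over all genes tested. In bulk RNA, fewer cells that make a transcript and less of it in each cell cannot be told apart.

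**Figure D1:**
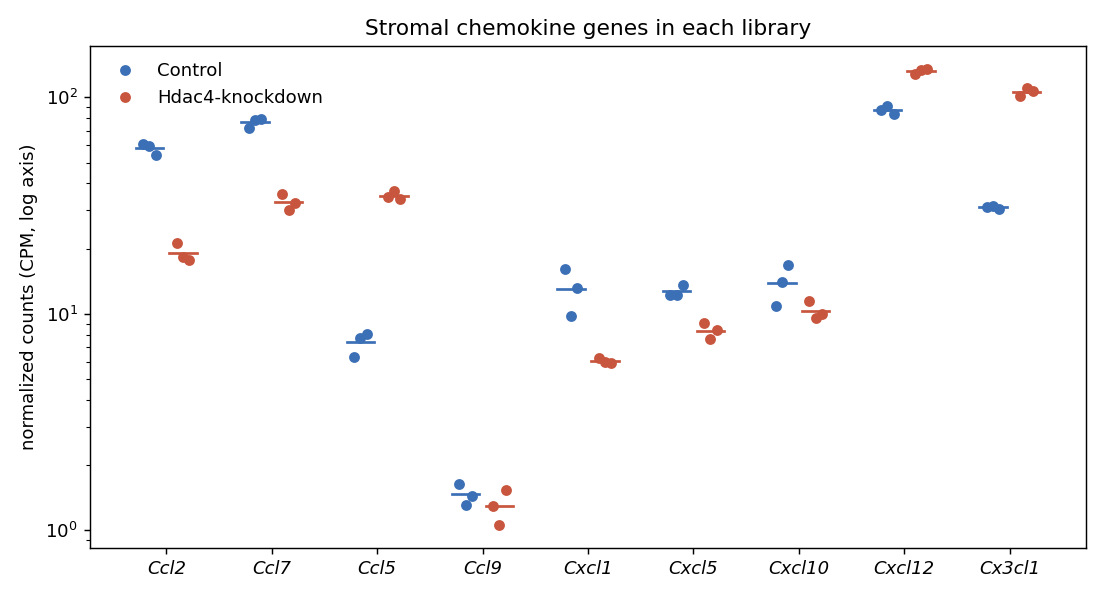
Normalized counts (CPM, log axis) of the 9 tested chemokine genes in each library, with points for the 3 Control (blue) and 3 Hdac4-knockdown (red) libraries and lines at the group means. Ccl2 and Ccl7 lie lower in every Hdac4-knockdown library, Ccl5, Cx3cl1 and Cxcl12 lie higher in every one, and the points of Ccl9 and Cxcl10 overlap between groups.

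Ccl2 and Ccl7 attract monocytes, Ccl2 through the receptor Ccr2 and Ccl7 through Ccr2, Ccr1 and Ccr3. Ccl2 (ENSMUSG00000035385, plus strand of chromosome 11 from 82035571 to 82037453) had 1860, 1793 and 1550 counts in Control and 654, 591 and 535 in Hdac4-knockdown libraries, or 60.9, 59.9 and 54.4 against 21.1, 18.3 and 17.8 CPM. Every Hdac4-knockdown library lay far below the lowest Control library. The mean fell from 58.4 ± 3.50 to 19.1 ± 1.80 CPM, to 32.7% of Control (log2 fold change -1.61, SE 0.0697, adjusted p = 4.57e-14). This was the largest fall among the 10 genes. Ccl7 (ENSMUSG00000035373, plus strand of chromosome 11 from 82045712 to 82047525) had 2216, 2355 and 2269 counts in Control and 1104, 973 and 975 in Hdac4-knockdown libraries, or 72.5, 78.7 and 79.6 against 35.7, 30.2 and 32.4 CPM. Here too the groups were far apart. Ccl7 fell to 42.6% of its Control level (log2 fold change -1.23, SE 0.0618, adjusted p = 5.19e-13). The count of Ccl7 over that of Ccl2 within a library, which no scaling of libraries can change, was 1.32 ± 0.136 in Control and 1.72 ± 0.0920 in Hdac4-knockdown.

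Ccl5 attracts T cells, monocytes and eosinophils through receptors that include Ccr1 and Ccr3, and Ccl9 attracts myeloid cells, osteoclast precursors among them, through Ccr1. Ccl5 (ENSMUSG00000035042, minus strand of chromosome 11 from 83525778 to 83530518) had 193, 231 and 230 counts in Control and 1070, 1194 and 1018 in Hdac4-knockdown libraries, or 6.32, 7.72 and 8.07 against 34.6, 37.1 and 33.8 CPM. The lowest Hdac4-knockdown library was well above the highest Control library. The mean rose 4.77-fold, from 7.37 ± 0.928 to 35.2 ± 1.69 CPM (log2 fold change 2.26, SE 0.0865, adjusted p = 6.85e-15). Ccl5 is also made by T cells and macrophages. Of the 12 leukocyte and macrophage markers, Lyz2 and Csf1r rose (log2 fold changes 4.82 and 2.199), Itgam had 0 counts in each Control library and 5, 2 and 4 in the Hdac4-knockdown libraries, Ptprc had at most 9, and Cd3e, Adgre1 and Mpo had 0 in all 6 libraries. The part of such cells in the rise of Ccl5 was not tested. Ccl9 (ENSMUSG00000019122, minus strand of chromosome 11 from 83572919 to 83578636) had 50, 39 and 41 counts in Control and 40, 34 and 46 in Hdac4-knockdown libraries. These values overlapped. Its level was 1.46 ± 0.168 CPM in Control and 1.29 ± 0.237 CPM in Hdac4-knockdown (log2 fold change -0.18, SE 0.25, adjusted p = 0.525 by edgeR; p = 0.4 by a two-sided exact permutation test). A difference of this size was not detectable with an SE of 0.25 on the log2 scale.

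Cxcl1 and Cxcl5 attract neutrophils through Cxcr2. Cxcl1 (ENSMUSG00000029380, plus strand of chromosome 5 from 90891241 to 90893115) had 494, 293 and 374 counts in Control and 193, 193 and 178 in Hdac4-knockdown libraries, or 16.2, 9.79 and 13.1 against 6.24, 5.99 and 5.91 CPM. The Control libraries were spread widely and the Hdac4-knockdown libraries narrowly, without overlap. The mean fell from 13.03 ± 3.19 to 6.05 ± 0.170 CPM (log2 fold change -1.11, SE 0.141, adjusted p = 7.35e-07), with values from -1.29 to -0.93 when single libraries were left out. Cxcl5 (ENSMUSG00000029371, plus strand of chromosome 5 from 90759360 to 90761624) had 374, 364 and 387 counts in Control and 280, 245 and 252 in Hdac4-knockdown libraries, or 12.2, 12.2 and 13.6 against 9.05, 7.60 and 8.37 CPM. All Hdac4-knockdown libraries lay below all Control libraries. Cxcl5 fell to 65.9% of Control (log2 fold change -0.60, SE 0.098, adjusted p = 1.71e-05).

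Cxcl10 attracts activated T cells and natural killer cells through Cxcr3. Cxcl10 (ENSMUSG00000034855, minus strand of chromosome 5 from 92346638 to 92348889) had 333, 421 and 477 counts in Control and 354, 307 and 299 in Hdac4-knockdown libraries, or 10.9, 14.1 and 16.7 against 11.4, 9.53 and 9.93 CPM. The lowest Control library lay within the range of the Hdac4-knockdown libraries, so the groups overlapped. The mean fell from 13.9 ± 2.92 to 10.3 ± 1.01 CPM (log2 fold change -0.43, SE 0.124, adjusted p = 0.00416 by edgeR; p = 0.2 by a two-sided exact permutation test). When single libraries were left out, it ranged from -0.59 to -0.29 and the gene was called each time. Of its 2252 exon bases, 133 are shared with Art3 on the opposite strand, and the library kit did not keep strand.

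Cxcl12 and Cxcl14 are constitutive chemokines of connective tissue, and Cxcl12 retains blood stem cells and B-cell precursors in marrow through Cxcr4. Cxcl12 (ENSMUSG00000061353, plus strand of chromosome 6 from 117168535 to 117181367) had 2673, 2738 and 2385 counts in Control and 3968, 4296 and 4086 in Hdac4-knockdown libraries, or 87.5, 91.5 and 83.7 against 128.2, 133.3 and 135.7 CPM. The groups did not overlap and the spread within each was small. Cxcl12 rose 1.51-fold, from 87.5 ± 3.90 to 132.4 ± 3.83 CPM (log2 fold change 0.60, SE 0.0462, adjusted p = 5.2e-10). Cxcl14 (ENSMUSG00000021508, minus strand of chromosome 13 from 56288643 to 56296551) had 0 counts in all 6 libraries. A count of 0 allows up to 3 counts, or 0.0931 to 0.105 CPM depending on the library, so a level above that was not detected in either group.

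Cx3cl1 is made as a membrane-anchored protein with a chemokine domain on a stalk, and is released when the proteases Adam10 or Adam17 cut the stalk. Cx3cl1 (ENSMUSG00000031778, plus strand of chromosome 8 from 94772009 to 94782427) had 952, 945 and 872 counts in Control and 3129, 3546 and 3217 in Hdac4-knockdown libraries, or 31.2, 31.6 and 30.6 against 101.1, 110.0 and 106.9 CPM. The Control libraries were almost equal, and every Hdac4-knockdown library lay far above them. Cx3cl1 rose 3.41-fold, from 31.1 ± 0.491 to 106 ± 4.52 CPM (log2 fold change 1.77, SE 0.0512, adjusted p = 7.73e-17). The ratio of Cx3cl1 to Ccl2 counts within a library was 0.512, 0.527 and 0.563 in Control and 4.78, 6 and 6.01 in Hdac4-knockdown libraries. That of Ccl5 to Ccl2 was 0.104, 0.129 and 0.148 against 1.64, 2.02 and 1.90. Ccl2 thus drew more reads than either gene in every Control library and fewer in every Hdac4-knockdown library, before any correction for length.

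Levels of different genes were compared as CPM per kilobase of exon. In Control libraries Ccl7 (96.1 ± 4.81 CPM per kb) and Ccl2 (51.3 ± 3.08) stood far above Cxcl12 (10.7 ± 0.477). Cx3cl1, Ccl5, Cxcl1, Cxcl5 and Cxcl10 followed between 7.92 and 6.17 CPM per kb, and each overlapped the next in this order. Ccl9 was lowest of the detected genes at 0.479 ± 0.0551 CPM per kb. In Hdac4-knockdown libraries the order was Ccl7 (40.9 ± 3.45 CPM per kb), Ccl5 (36.6 ± 1.76), Cx3cl1 (27.0 ± 1.15), Ccl2 (16.8 ± 1.58) and Cxcl12 (16.2 ± 0.468). Ccl7 and Ccl5 overlapped there, as did Ccl2 and Cxcl12. Cxcl10 and Cxcl5 overlapped at 4.57 and 4.48 CPM per kb, above Cxcl1 at 3.23 and Ccl9 at 0.424. With the length of the longest protein-coding transcript in place of all exons, Ccl5 was first in Hdac4-knockdown libraries (66.1 ± 3.18 CPM per kb) and Ccl7 the second (40.9 ± 3.45).

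Over all 38 chemokine ligand genes counted, the summed level per kb was 208.7 ± 3.89 in Control and 173.5 ± 4.52 in Hdac4-knockdown libraries. The 10 genes held 93.0 ± 0.410% of this sum in Control and 86.5 ± 0.482% in Hdac4-knockdown. The Ccr2 ligands Ccl2 and Ccl7 together went from 70.5, 71.7 and 69.6% in Control libraries to 35.4, 31.2 and 33.1% in Hdac4-knockdown libraries. Cxcl12, Cx3cl1 and Ccl5, grouped here because they rose, went from 12.6 ± 0.320% to 46.0 ± 2.38%. With coding transcript lengths the same shares were 65.4 and 27.0% for Ccl2 and Ccl7, and 15.1 and 51.1% for the other three.

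**Figure D2:**
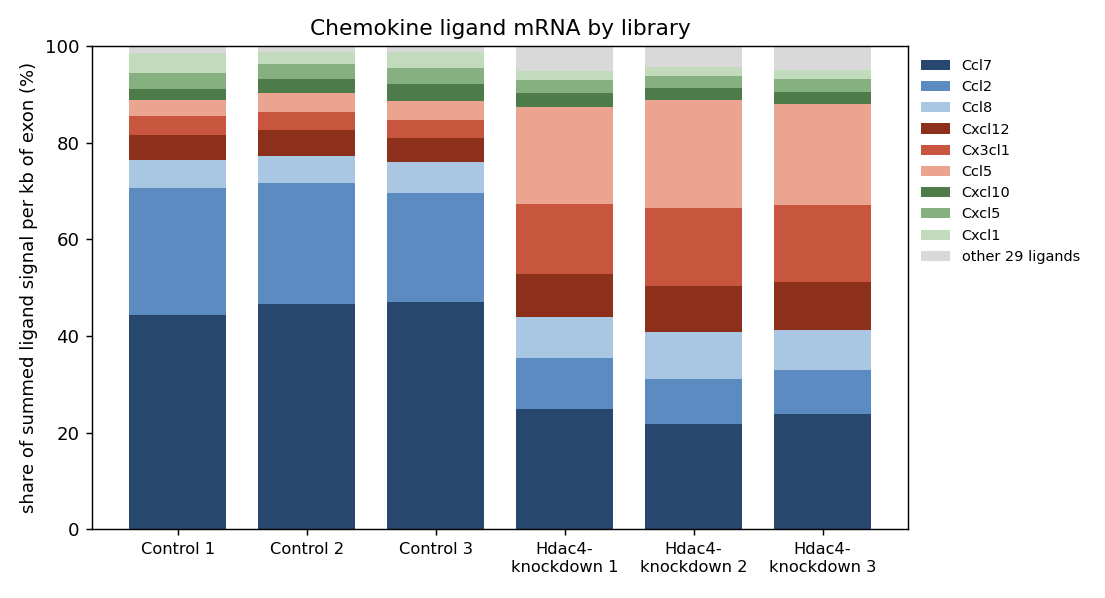
Share of the summed level per kb of exon of 38 chemokine ligand genes (%, stacked bars) taken by each gene in each library. Ccl7 and Ccl2, at the foot of the bars, fill 69.6 to 71.7% of each Control bar and 31.2 to 35.4% of each Hdac4-knockdown bar, while the red segments of Cxcl12, Cx3cl1 and Ccl5 widen.

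Most of the 10 genes sit in clusters of related chemokines, and neighbours within a cluster differed in direction. Ccl2 and Ccl7 lie 10.1 kb apart on chromosome 11. Ccl11, an eosinophil attractant 22.3 kb from Ccl2, had 19, 14 and 16 counts in Control and 47, 46 and 48 in Hdac4-knockdown libraries. These groups did not overlap, and Ccl11 rose from 0.550 ± 0.0776 to 1.51 ± 0.0837 CPM (log2 fold change 1.45, SE 0.289, adjusted p = 1.55e-04). Ccl8, 79.6 kb from Ccl2, went from 6.38 ± 0.523 to 7.87 ± 0.679 CPM (log2 fold change 0.30, SE 0.116, adjusted p = 0.0236 by edgeR). That call was lost without Control library 1 (0.27, adjusted p = 0.0775), Control library 2 (0.25, adjusted p = 0.0886) or Hdac4-knockdown library 2 (0.24, adjusted p = 0.0915). Ccl12 and Ccl1, in the same cluster, had at most 2 counts in any library.

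On the same chromosome, Ccl5 and Ccl9 lie 47.1 kb apart. Their neighbours Ccl3, Ccl4 and Ccl6 did not pass the filter, with at most 1, 6 and 0 counts in any library.

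On chromosome 5, Cxcl5 and Cxcl1 lie 131.9 kb apart, with other neutrophil attractants between and beyond them. Cxcl2, 12.6 kb from Cxcl1, had 0 counts in each Control library and 44, 30 and 45 in Hdac4-knockdown libraries. It was at least 12.7-fold higher in Hdac4-knockdown, with a floor of 3 counts per Control library. Cxcl3, 26.7 kb from Cxcl5, had 1, 0 and 0 counts in Control and 78, 51 and 81 in Hdac4-knockdown libraries, a count ratio of 200.4 with an exact 95% interval of 35.6 to 7951 for counting error only. Ppbp, 9.2 kb from Cxcl5, had 26, 15 and 16 counts in Control and 107, 82 and 93 in Hdac4-knockdown libraries (log2 fold change 2.24, SE 0.258, adjusted p = 1.92e-07). Cxcl2, Cxcl3 and Ppbp therefore rose while Cxcl1 and Cxcl5 fell, and reached 1.28 ± 0.307, 2.27 ± 0.597 and 3.03 ± 0.460 CPM in Hdac4-knockdown. Cxcl1, Cxcl2 and Cxcl3 are close paralogs, and reads aligned to several places are not in these counts. Pf4 and Cxcl15 had at most 1 and 3 counts.

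Cxcl9, 25.3 kb from Cxcl10 and induced by interferon gamma, had 16, 18 and 15 counts in Control and 36, 14 and 28 in Hdac4-knockdown libraries. The groups overlapped, and it was not called (log2 fold change 0.60, SE 0.376, adjusted p = 0.153). Without Hdac4-knockdown library 2, its log2 fold change was 0.92 (adjusted p = 0.0309 by edgeR). Cxcl11, 12.9 kb from Cxcl10, had at most 7 counts. Ccl17 and Ccl22, 38.4 and 26.4 kb from Cx3cl1, had at most 3 and 7.

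**Figure D3:**
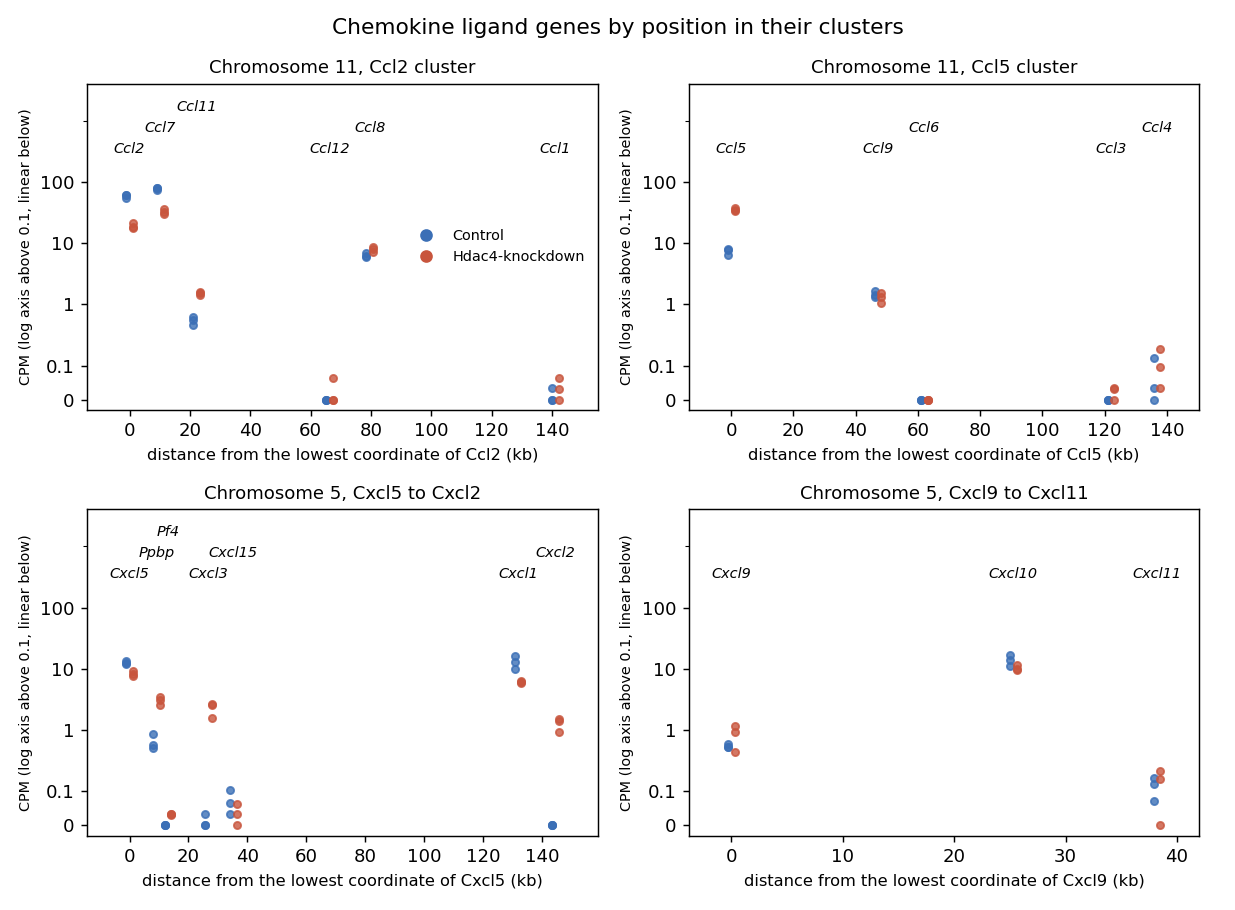
CPM in each library (log axis above 0.1, linear below) of the chemokine genes in 4 clusters, against the distance in kb from the gene named under each panel. Blue points are Control and red points Hdac4-knockdown libraries; Ccl2 and Ccl7 are lower and Ccl11 higher in red within 22.3 kb, and Cxcl2, 12.6 kb from Cxcl1, moves from 0 to 1.28 CPM on average while Cxcl1 is lower.

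Of the 28 chemokine ligand genes outside the 10, 8 were tested, 7 rose, 0 fell and 1 was not called. Over all genes tested, 38% were called higher and 37.1% lower. The median log2 fold change of the 8 was 1.65, beside 0.0144 for all genes tested. Ligands near 0 in Control, such as Cxcl2 and Cxcl3, passed the filter only through their Hdac4-knockdown counts, which adds to the rises and to this median. With a minimum of 1 count in all libraries together, 11 of the 28 were called higher, and with at least 10 counts in every library, 4. Ccl25, which guides thymocytes and gut-homing T cells, rose from 3.36 ± 0.307 to 8.68 ± 1.45 CPM (log2 fold change 1.37, SE 0.143, adjusted p = 4.65e-08), and 204 of its 7445 exon bases are shared with Elavl1. Ccl20, too low to be tested, had 0 counts in Control and 10, 12 and 5 in Hdac4-knockdown libraries, at least 2.84-fold higher with the same floor. The 28 genes together summed to 11.4 to 12.7 CPM in Control and 26.1 to 30.3 CPM in Hdac4-knockdown libraries. The summed CPM of the 10 went from 299.3 to 306.7 in Control to 348.8 to 353.1 in Hdac4-knockdown libraries.

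Upstream sequence is shown for Cxcl1 and Cxcl10, which fell and whose NF-kB consensus sites are well known, and for Cxcl12, which rose. The RefSeq promoter table (GRCm38.p6) held 6 of the 10 genes, and the 250 bases before each annotated start were searched on both strands. Ccl5, which rose, and Ccl2, Ccl7 and Cxcl5, which fell, were not in it and were not searched. Capitals mark, in Cxcl1, the NF-kB consensus, and in Cxcl10, in order, the interferon-stimulated response element core (GAAA, any 2 bases, GAAA), the NF-kB consensus at 2 places, and the AP-1 motif TGANTCA.
Cxcl1, chr5:90890995-90891244, plus strand: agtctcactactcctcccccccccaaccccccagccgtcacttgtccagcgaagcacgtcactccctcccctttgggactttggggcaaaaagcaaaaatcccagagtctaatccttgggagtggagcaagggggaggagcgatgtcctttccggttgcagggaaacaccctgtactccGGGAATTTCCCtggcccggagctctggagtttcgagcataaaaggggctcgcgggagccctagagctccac
Cxcl10, chr5:92348890-92349139, minus strand: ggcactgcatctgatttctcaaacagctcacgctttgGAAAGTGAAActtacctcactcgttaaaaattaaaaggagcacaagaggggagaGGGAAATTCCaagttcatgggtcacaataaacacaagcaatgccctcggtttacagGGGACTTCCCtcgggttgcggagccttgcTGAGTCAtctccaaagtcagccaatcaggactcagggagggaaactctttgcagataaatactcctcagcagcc
Cxcl12, chr6:117168285-117168534, plus strand: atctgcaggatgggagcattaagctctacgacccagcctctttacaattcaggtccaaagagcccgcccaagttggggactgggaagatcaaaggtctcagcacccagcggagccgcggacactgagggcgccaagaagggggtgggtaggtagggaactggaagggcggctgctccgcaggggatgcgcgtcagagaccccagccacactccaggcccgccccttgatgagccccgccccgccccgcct
The NF-kB consensus was found in 3.9% of 32851 promoter windows of this length, the interferon-stimulated response element core in 2.98% and AP-1 in 6.75%. In Cxcl1 the NF-kB consensus was met once on each strand by matches offset by 1 base, at -71 to -62 on the strand of the gene and at -70 to -61 on the other, counted from the start. In Cxcl10 they lie at -159 to -150 and -103 to -94. Ccl9, which was not called, also held the NF-kB consensus at -35 to -26 and AP-1 at -53 to -47, and Cxcl14, at 0 counts, held the interferon core at -172 to -163. Cxcl12 and Cx3cl1, which rose, held none of these letters in their windows, of which that of Cx3cl1 overlaps its own annotated exon by 171 bases. The consensus of the MEF2 factors, which Hdac4 is known to repress, was in 2.92% of windows and in none of the 6. Such matches describe the letters and were not tested as binding sites.

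Most receptors for the 10 chemokines were at or near 0 counts in these cells, with the receptors of Cxcl12 as the exception. Of 23 receptor genes, 6 were tested, 2 rose, 2 fell and 2 were not called, beside 75.1% called over all genes tested. Ccr2, Cxcr2 and Cxcr3 had 0 counts in all 6 libraries, Ackr1 at most 1, Ccr3 at most 4, Ackr2 and Cx3cr1 at most 6 and Ccr1 at most 8. Cxcr4 had 199, 267 and 270 counts in Control and 124, 103 and 137 in Hdac4-knockdown libraries. The groups did not overlap, and Cxcr4 fell from 8.30 ± 1.57 to 3.92 ± 0.682 CPM (log2 fold change -1.08, SE 0.155, adjusted p = 3.54e-06). Ackr3, a scavenging receptor that takes up Cxcl12, had 2683, 2572 and 2456 counts in Control and 2002, 2109 and 1875 in Hdac4-knockdown libraries. It fell from 86.6 ± 1.02 to 64.2 ± 1.65 CPM (log2 fold change -0.43, SE 0.0458, adjusted p = 5.57e-08). The ratio of Cxcl12 to Cxcr4 counts within a library was 13.4, 10.3 and 8.83 in Control and 32, 41.7 and 29.8 in Hdac4-knockdown libraries. That of Cxcl12 to Ackr3 was 1.01 ± 0.0484 against 2.07 ± 0.102. Ccr10, a receptor for skin chemokines, was called higher at 1.08 ± 0.274 against 1.63 ± 0.271 CPM (log2 fold change 0.60, adjusted p = 0.0485 by edgeR). It was no longer called without Control library 2 (adjusted p = 0.186), Control library 3 (0.118), Hdac4-knockdown library 1 (0.182) or Hdac4-knockdown library 3 (0.0667), nor by DESeq2 (0.0813) or limma-voom (0.0515).

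**Figure D4:**
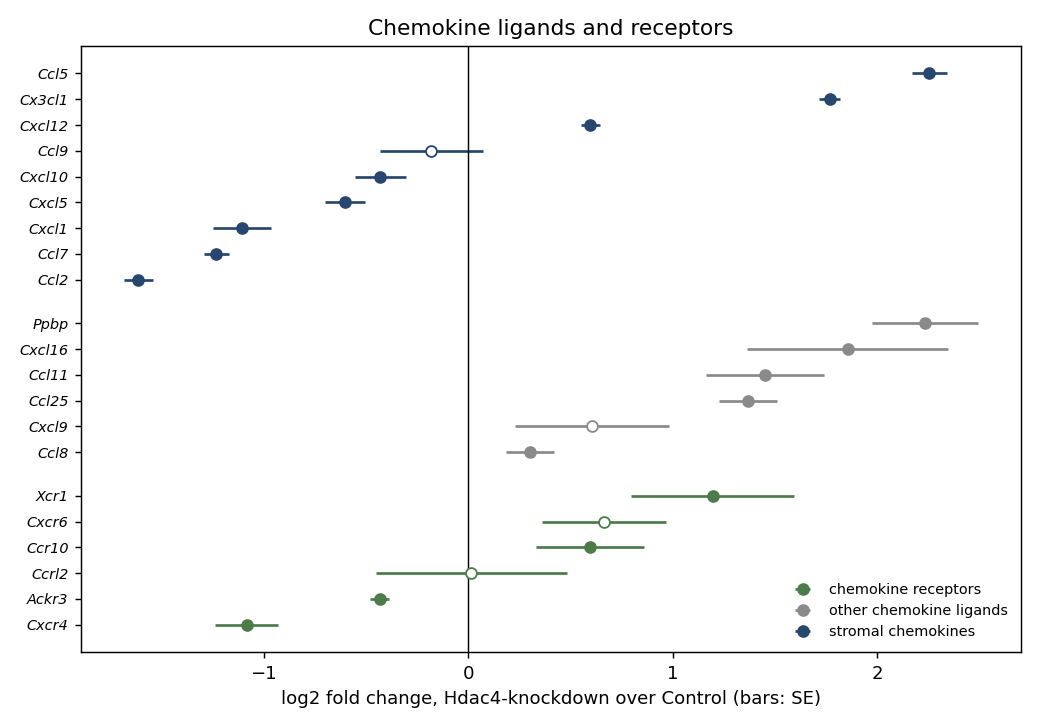
Log2 fold change of Hdac4-knockdown over Control (points) with its SE (bars) for the tested chemokine genes, the other tested ligands and the tested receptors, with open points for genes that were not called. Cxcl2 and Cxcl3 are left out because Control held 0 or 1 counts; the chemokine genes range from -1.61 (Ccl2) to 2.26 (Ccl5), and Cxcr4 is lowest of the receptors at -1.08.

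The genes that act around these chemokines were taken from lists of pathway members. Of 27 genes of the NF-kB pathway, all were tested, 13 rose, 8 fell and 6 were not called, and the median log2 fold change was 0.16. Over all genes tested 75.1% were called, so this share is near the background. Nfkb2 rose from 89.6 ± 2.88 to 163.9 ± 6.19 CPM (log2 fold change 0.87), its partner Relb by 1.28 and Chuk, which encodes the kinase IKK-alpha, by 0.71 on the log2 scale. Nfkb1 and Rela, the subunits of the classical dimer, rose by 0.24 and 0.27. The receptor gene Tlr2 (1.74) and the inhibitor gene Nfkbie (1.51) also rose. Ikbkg, the scaffold of the canonical kinase complex, fell by 0.64 on the log2 scale, with 418 of its 8110 exon bases shared with G6pdx. Il1rap, the co-receptor of interleukin 1, fell by 0.78, the lipopolysaccharide receptor gene Tlr4 by 0.31 and Tnip1, which binds A20, by 0.34. Tnfaip3, the feedback inhibitor A20 and itself an NF-kB target, went from 1642, 1731 and 1655 counts to 675, 712 and 644 (log2 fold change -1.38, SE 0.0581, adjusted p = 3.18e-14). Its fall was near that of Ccl2 and Ccl7 in size.

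Of 17 other inflammatory NF-kB targets, 11 were tested, 9 rose, 1 fell and 1 was not called. The median log2 fold change was 1.23. Over all genes tested, 38% were called higher and 37.1% lower. Icam1, Saa3 and Mmp3 were below 10 counts in each Control library and passed the filter only through their Hdac4-knockdown counts. This adds to the rises and to the median. With at least 10 counts in every library, 6 genes of the list were called higher. Ptgs2, the inducible cyclo-oxygenase, had 2343, 2340 and 2248 counts in Control and 7101, 6855 and 6767 in Hdac4-knockdown libraries. Its log2 fold change was 1.51 (SE 0.0441, adjusted p = 8.54e-17). The collagenase gene Mmp13 rose by 3.10, the cytokine gene Lif by 1.23, the macrophage growth factor gene Csf1 by 1.06 and the adhesion molecule gene Vcam1 by 0.72 on the log2 scale. Il33, an alarmin, fell from 142.3 ± 1.73 to 4.74 ± 0.911 CPM (log2 fold change -4.91, SE 0.0804, adjusted p = 1.01e-20), the list's only fall.

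Of 24 interferon signalling genes, 22 were tested, 5 rose, 10 fell and 7 were not called, and the median log2 fold change was -0.15, beside 75.1% called over all genes tested. Without Control library 1 or without Hdac4-knockdown library 2, 3 rose in place of 5. Rsad2, an interferon-induced antiviral gene, had 1755, 1894 and 2276 counts in Control and 813, 553 and 466 in Hdac4-knockdown libraries. These groups were far apart, and its log2 fold change was -1.77 (SE 0.136, adjusted p = 4.75e-10). The RNA sensor gene Ifih1 fell by 1.42, the regulator Irf7 by 0.64, Isg15 by 0.43 and the kinase Jak1 by 0.37 on the log2 scale, beside a fall of 0.43 for Cxcl10. Mavs, the adaptor of the RNA sensors, rose by 0.67, Ifit1 by 0.55 and the receptor gene Ifngr2 by 0.22. Irf3 (0.18) and Stat2 (0.15) were called higher with less stability. Irf3 was not called without Control library 1 (adjusted p = 0.0573 by edgeR), Control library 3 (0.172) or Hdac4-knockdown library 2 (0.0558). Stat2 was not called without Control library 1 (adjusted p = 0.227 by edgeR), Control library 2 (0.109), Hdac4-knockdown library 1 (0.182) or Hdac4-knockdown library 2 (0.101). Ifit1 had 3589, 4202 and 4476 counts in Control and 7496, 6635 and 4844 in Hdac4-knockdown libraries, so Hdac4-knockdown library 3 lay close to Control.

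**Figure D5:**
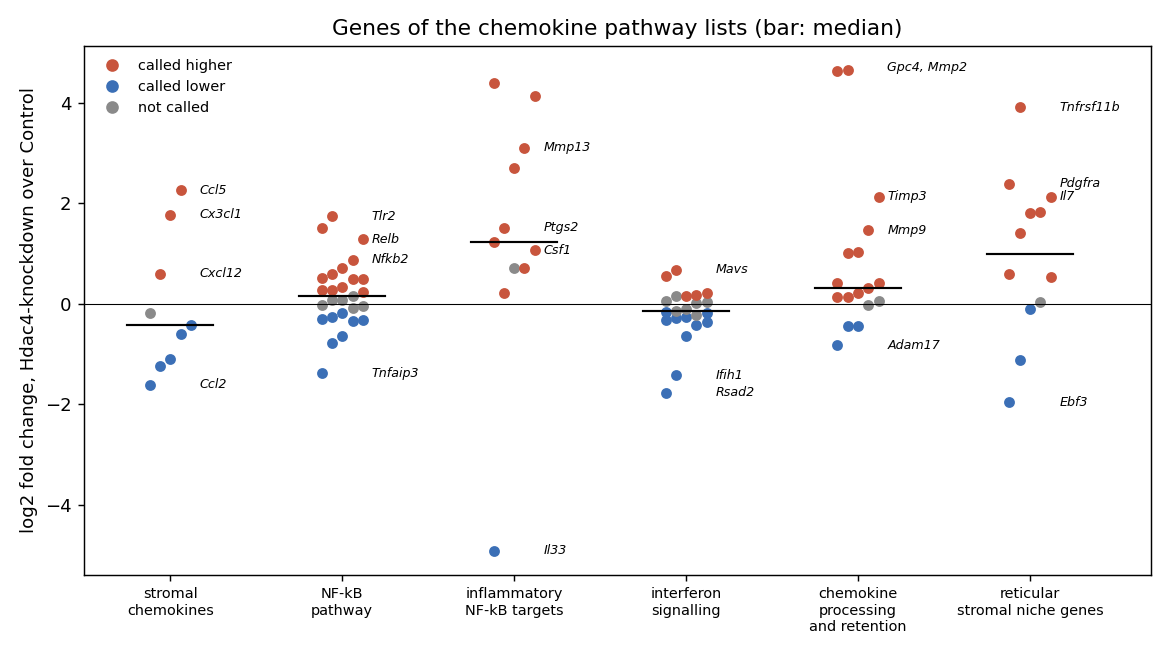
Log2 fold change of Hdac4-knockdown over Control for each tested gene of 6 lists, coloured by call, with a bar at each list's median. The medians are -0.43 for the stromal chemokines, 0.16 for the NF-kB pathway, 1.23 for inflammatory NF-kB targets, -0.15 for interferon signalling, 0.31 for chemokine processing and retention and 0.99 for reticular stromal niche genes.

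Of 19 genes that cut chemokines or hold them at the cell surface, 17 were tested, 12 rose, 3 fell and 2 were not called, and the median log2 fold change was 0.31, beside 75.1% called over all genes tested. With a log2 fold change beyond 1 required, 6 rose and 0 fell, beside 27.1% of all genes tested called in either direction. Adam17, the protease that sheds Cx3cl1 on stimulation, had 3947, 3532 and 3647 counts in Control and 2271, 2160 and 2148 in Hdac4-knockdown libraries. It fell by 0.82 on the log2 scale (SE 0.05, adjusted p = 1.08e-11), and 311 of its 7154 exon bases are shared with Iah1. Adam10, the constitutive sheddase, was called higher at 168.2 ± 4.55 against 185.1 ± 10.8 CPM (log2 fold change 0.14, adjusted p = 0.0111), with groups that overlapped. Mmp2, a gelatinase that inactivates Cxcl12 and Ccl7 by cutting their ends, had 731, 738 and 675 counts in Control and 17734, 20022 and 18048 in Hdac4-knockdown libraries. Its log2 fold change was 4.63 (SE 0.0495, adjusted p = 5.1e-23), and that of Timp3, a metalloproteinase inhibitor, was 2.13. Mmp9 rose by 1.46 from 0.879 ± 0.209 CPM. Of the proteoglycan genes, Gpc4 rose by 4.65 and Sdc2 by 1.04, while Sdc4 and the heparan sulphate polymerase gene Ext2 each fell by 0.44 on the log2 scale. Dpp4, whose protease inactivates Cxcl12, had at most 1 count.

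Reticular stromal niche genes are those that mark the Cxcl12-rich cells of marrow. Of 13, 12 were tested, 8 rose, 3 fell and 1 was not called, and the median log2 fold change was 0.99, beside 38% higher and 37.1% lower over all genes tested. Pdgfra, a surface marker of these cells, had 1249, 1161 and 1110 counts in Control and 6442, 6785 and 6074 in Hdac4-knockdown libraries. Its log2 fold change was 2.39 (SE 0.0461, adjusted p = 1.26e-19). Il7, a B-cell precursor cytokine, rose by 2.13, Pdgfrb by 1.82, Bmp4 by 1.81 and Tnfrsf11b, the decoy receptor osteoprotegerin, by 3.90 on the log2 scale. The transcription factor genes Ebf3 and Ebf1, which are known to keep marrow reticular cells in their state, fell by 1.96 and 1.11 on the log2 scale. Grem1, a BMP antagonist, was called lower (log2 fold change -0.11, adjusted p = 0.026 by edgeR). It was not called with library size scaling (adjusted p = 0.267), upper quartile scaling (0.656) or at least 10 counts in every library (0.136), nor without Control library 1 (0.0796), Control library 3 (0.0623) or Hdac4-knockdown library 2 (0.102). Foxc1, a transcription factor gene of the same list, rose by 0.59 on the log2 scale (adjusted p = 1.71e-07 by edgeR). Cxcl12 rose in the group in which Ebf1 and Ebf3 were lower and Foxc1 was higher. A link between these changes was not tested.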

How the data were processed

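RNA was extracted from MC3T3-E1 cells, selected for poly-A, and sequenced in 3 Control and 3 Hdac4-knockdown libraries made with a kit that does not keep strand. The authors deposited raw counts per Ensembl gene for each library, with no normalization. The submitters' processing notes name FastQC, STAR 2.7.3a, HTSeq 0.12.4 and mm10, and the annotation release is not given in the sources used here. Each table ends with lines of reads that name no gene. These were left out of library sizes and tests, and amounted to 3.17 to 5.07% of reads outside genes, 5.84 to 6.51% shared between genes and 3.88 to 4.77% aligned to several places. Symbols and GRCm38 positions came from GENCODE M21, which held 53706 of the 53801 identifiers. Lengths are the union of a gene's exons.

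Counts were compared with edgeR 4.0.16 (glmQLFit, glmQLFTest) in R 4.3.3, with TMM factors, the default filterByExpr and Benjamini-Hochberg adjustment over 14531 genes. Calls needed an adjusted p below 0.05 and 0.05 or more of change on the log2 scale, since the study states these thresholds and names no test. The common biological coefficient of variation was 4.79%. Exact permutation tests were two-sided, used log2(CPM + 0.5), and cannot go below p = 0.1 with 3 libraries against 3. For genes at 0 counts in every Control library and above 3 in every Hdac4-knockdown library, a least fold was computed against a floor of 3 counts. The count ratio of Cxcl3 used summed counts scaled by library size, without a floor. Floors and intervals cover counting error only, because reads without molecular identifiers are not independent molecules.

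The genes and lists were chosen with earlier results of these data known. Named from each list were up to 5 genes at either end of the fold changes, among those called and averaging at least 30 counts per library. All 10 chemokine genes, their receptors and ligand genes within 500 kb were named whatever their values, as were cell type markers at or near 0, apart from a receptor gene that is not reported here. Ccl20, Cd14, Csf1r, Itgam, Adam10, Dpp4, Nfkb1, Rela, Foxc1, Icam1, Saa3 and Mmp3 were named after their values were seen. Alternatives were scaling by DESeq2 size factors, by library size or by the upper quartile, DESeq2 1.42.0, limma-voom (limma 3.58.1), other filters and fold thresholds, the replicate number as a block, and leaving out each library. On simulated counts with 200 planted changes, of which 196 were in tested genes, the edgeR test recovered 92.4% of these, with 10 false among 191 calls over 13680 genes tested. The planted changes were larger than many called here, and all other genes were left unchanged. These rates therefore do not describe small changes, or data in which 75.1% of genes tested were called. Figures were drawn with matplotlib 3.10.9.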

Additional observations from a re-analysis of the deposited data

Results flagged for a closer look

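Reads that fell outside every gene, which no comparison above uses, made up 4.79 ± 0.241% of reads in Hdac4-knockdown libraries and 3.28 ± 0.122% in Control libraries (SD, n = 3), a level above the Control libraries in data outside the main measurement.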

How the results depend on the processing

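The calls of the 9 tested chemokine genes kept their direction and their side of the threshold under all 14 alternatives to the fit (5 other scalings or tests, 2 filters, the replicate block and 6 single libraries left out). Without each library in turn, the log2 fold change ranged from -1.68 to -1.56 for Ccl2, from 2.15 to 2.31 for Ccl5, from -1.29 to -1.17 for Ccl7, from -0.66 to -0.54 for Cxcl5, from 0.55 to 0.63 for Cxcl12 and from 1.74 to 1.81 for Cx3cl1. Because fewer genes pass a larger fold, a threshold of 1 on the log2 scale left 3 of the 5 chemokine genes that fell and 2 of the 3 that rose, without Cxcl12, and over all genes 2397 higher and 1543 lower in place of 5521 and 5393; a threshold of 0.5 left 3579 and 2879. Scaling by library size alone or by the upper quartile moved the median log2 fold change of all genes by 0.0568 and 0.089. Deviations of libraries with the same replicate number correlated at -0.00523, 0.0956 and 0.0206. With 3 libraries per group, such values cannot show whether libraries with the same number were prepared together. With the replicate number as a block, 3 chemokine genes were higher and 5 lower, as without it, and 5523 and 5441 genes were called higher and lower. Of 1260 other values and alternatives, 1202 kept their call, 26 lost it, 1 gained it, 31 moved and 0 reversed. The comparison by coding transcript length was chosen after seeing the data. Cxcl14 and most receptor genes had too few counts to be compared, and depth and absence of expression cannot be told apart there.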
